A study of Mus musculus with 68 samples.

Results

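Of the 12571 autosomal genes listed for mouse embryonic fibroblasts (MEFs) of the 8 founder strains of the Collaborative Cross, 1424 (11.3%) had a control level in PWK/PhJ (PWK) that lay outside the range of every other founder strain. The rule was that all 3 PWK control libraries lay above, or all 3 lay below, each of the 15 control libraries of the other 7 strains. Above the range were 751 genes (5.97%) and below it 673 (5.35%). PWK is an inbred strain derived from wild Mus musculus musculus, a subspecies apart from the mostly domesticus ancestry of the laboratory strains. The other founders were CAST/EiJ (CAST) and WSB/EiJ (WSB), which are wild-derived as well, and the laboratory strains A/J (A), C57BL/6J (B6), 129S1Sv/ImJ (129), NOD/ShiLtJ (NOD) and NZO/H1LtJ (NZO).

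MEFs are primary cells grown from minced embryos, so a culture holds mesenchymal cells from many parts of the body. Fibroblasts make the collagens, laminins and other proteins of the extracellular matrix, the proteases that remodel it and the integrins that bind it. They also keep an expression record of the body region they came from in their Hox genes, and they carry inducible enzymes that oxidise foreign chemicals.

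Per the methods of the study, the cells of each strain were a mix from several embryos of a single litter. Control wells received 0.1% DMSO for 4 h. Sister wells received 2 ug/ml tunicamycin (TM), an inhibitor of glycosylation that causes endoplasmic reticulum (ER) stress, for the same time. There were 3 control and 3 TM libraries of PWK, 15 control and 19 TM libraries of the other strains. Because the libraries of a strain are wells of 1 cell preparation, p-values measure the spread among wells, and strain and preparation cannot be told apart. The question put to these data was which genes set unstressed PWK fibroblasts apart.

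A value below is the number of reads on a gene relative to the size of its library, after the study's normalization across the founder libraries. It is not divided by gene length, so values are compared between libraries and not between genes. Sums over markers are likewise compared between libraries only, and the genes with most reads dominate them. The 18 control libraries held 7091923 to 21530282 reads on listed genes, those of PWK 11807624 to 19675510. The labelled cell type was checked against its markers: Col1a1 (12031 to 16285 in the 3 PWK controls), Col1a2 (9208 to 11374) and Vim (7161 to 8658) were read at high levels, and all 11 fibroblast markers were listed. limma called 6 of the 11 higher and 3 lower in PWK under TM. Thy1 (99.9 to 109 against 2.18 to 654), Pdgfra (6.41 to 7.53 against 4.9998 to 29.5) and Fap (0.647 to 0.887 against 0.104 to 3.63) lay in the lower part of the range of the other controls. Markers of myeloid cells summed to 19.3 to 19.6 in PWK controls against 10.4 to 74.3 in the others over 12 listed genes, and those of endothelial cells to 3.48 to 4.08 against 3.13 to 19.9 over 5. Epithelial markers were an exception. Over Cdh1, Krt8, Krt18 and Krt14 they summed to 69.3 to 80.7 in PWK and to 4.91 to 65.7 in the other controls. Most of the PWK sum came from Krt18 (46.9 to 53.8) and Krt8 (20.4 to 24.04). None of the 4 met the rule, but limma called 3 higher in PWK under TM, as it did 4 of 7 neural and 4 of 7 adipocyte markers, whose sums lay inside the range of the other controls. Epcam and Krt5 were not listed, and Cdh1, which defines the type, was at 0.444 to 0.666 in PWK and 0 to 4.22 in the others. In bulk samples more cells of a type and more RNA per cell cannot be told apart. The methods of the study state female embryos, yet Y-linked genes were read in every strain. Ddx3y was 49.9 to 61.6 in PWK controls and 9.7 to 44.3 in the others, while Xist was 54.7 to 75.6 against 61.0 to 283. The rule leaves the X and Y chromosomes out, and the part of these marker differences in the results was not tested.

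The size of the differences ranged from slight to very large. A difference here is the mean log2 value of PWK minus the mean of the other 7 strain means, with 0.1 added to each value before the logarithm, which understates the change of low genes. The median was 0.93 (1.90 fold) over the 751 higher genes and -0.79 (1.73 fold lower) over the 673 lower genes, against -0.01 over all 12547 autosomal genes past the low-value filter. At least 2 fold apart were 343 higher and 264 lower genes, and at least 8 fold apart were 34 and 24. Under 1.5 fold were 178 and 217, for which 3 PWK wells sat just past a narrow range. Golt1b illustrates the edge: its lowest PWK control was 86.0, next to a highest other control of 86.0 that differed from it past the printed digits. Just outside the rule lay Tmem14c, whose lowest PWK control and highest other control were both 72.4. Pak1 (36.2 against 36.3) and Guf1 (7.42 against 7.43) lay just inside it on the low side.

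Set beside the other founders, PWK was among the 2 strains with most genes of this kind. Applied to each strain in turn, the same rule found 1506 genes for CAST, 887 for WSB, 725 for 129, 605 for B6, 473 for NZO, 457 for A and 350 for NOD. CAST had 2 control libraries, which the rule is easier on. With any 2 of its 3 controls PWK had 1587 to 1988 genes. Where PWK was highest, the next strain was most often CAST (189 genes, 25.2%). Where PWK was lowest, CAST was again most often next (239 genes, 35.5%). CAST itself had 1506 genes by the rule, so it may often be next whatever the level in PWK. How often CAST is the most extreme of the other strains over all autosomal genes was not counted. Whether CAST shares its direction with PWK was therefore not tested.

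**Figure D1:**
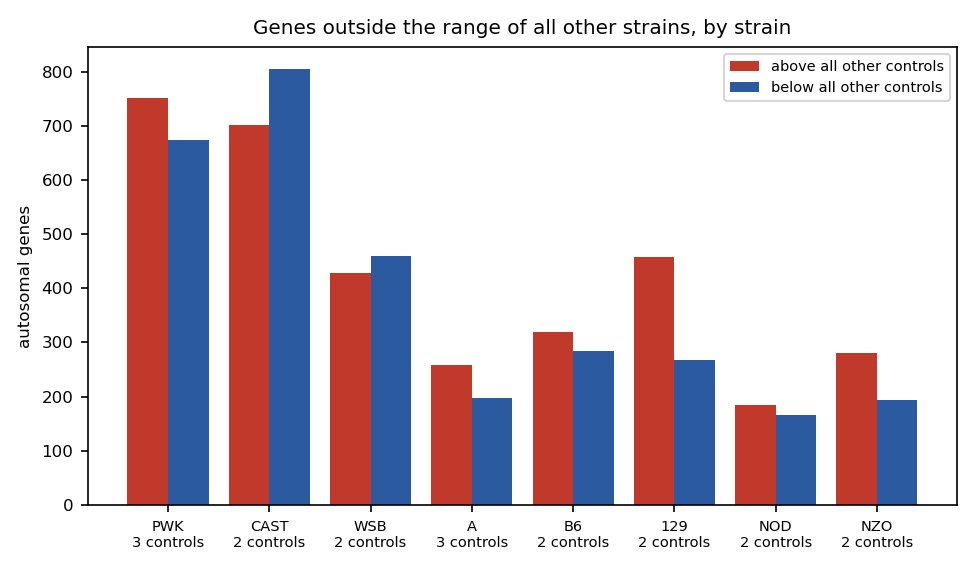
Number of autosomal genes (vertical axis) for which every control library of a strain lay above (red) or below (blue) all control libraries of the other 7 strains. PWK had 751 and 673 and CAST 701 and 805, and the number of control libraries, 2 or 3, is given under each strain.

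The TM libraries took no part in the choice of the genes, so they test it again, on the same cell preparations. Tested with limma, which fits every gene with a shared estimate of the spread, at an adjusted p under 0.01 and at least 1.5 fold, 494 of the 750 higher genes that could be tested were called higher in PWK under TM (65.9%, against 8.53% of all autosomal genes). Of 672 lower genes 391 were called lower (58.2%, against 7.7%). None of the 1424 was called in the opposite direction. The sign of the difference was kept for 748 and 671 genes. All PWK TM libraries lay above all other TM libraries for 424 of the higher genes (56.5%, against 4.96%) and below them for 323 of the lower genes (48.0%, against 3.98%). Median differences in TM were 0.95 and -0.76. In the controls themselves, where the rule used the same values and nothing can be read from it, limma called 553 of the higher (73.6%, against 7.98%) and 440 of the lower genes (65.4%, against 7.41%). A further fit of the same controls put the spread among the 7 other strains into the error, treating their 15 controls as 1 group. It called 336 of the higher (44.7%) and 335 of the lower genes (49.8%). Over all chromosomes that fit called 372 higher and 377 lower of 13169 genes.

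**Figure D2:**
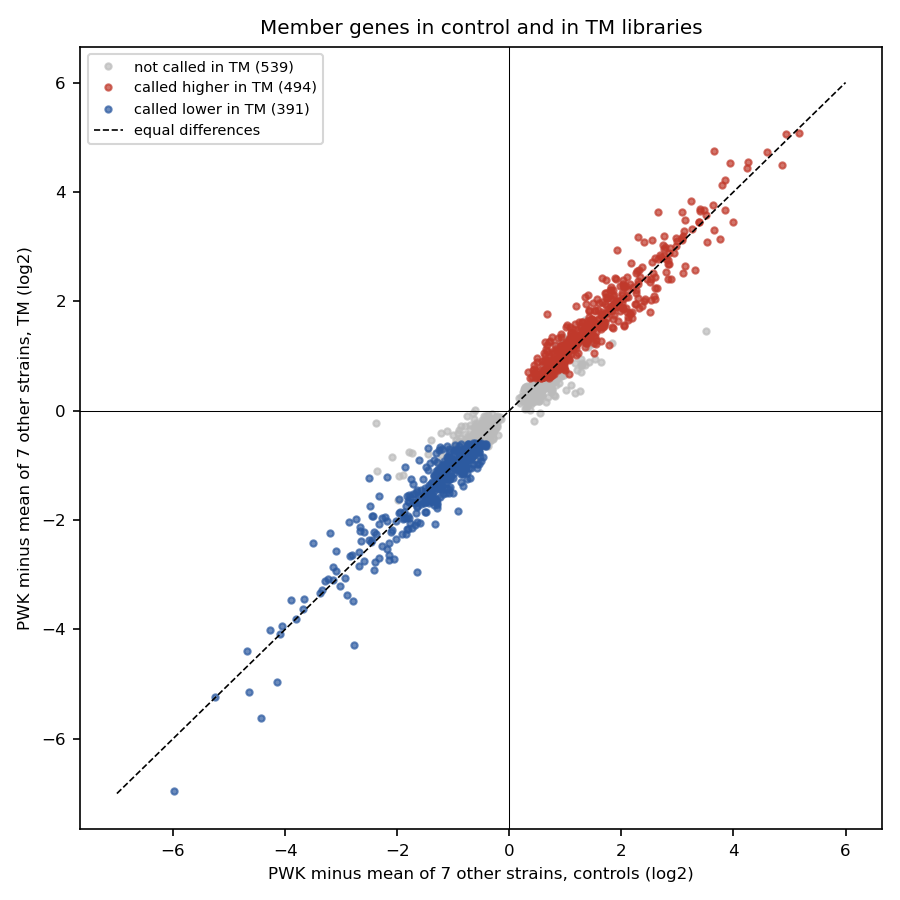
Each point is 1 of the 1424 genes, with its log2 difference between PWK and the mean of the 7 other strains in controls (horizontal) and in TM (vertical). Red points (494) were called higher and blue points (391) lower in TM, grey points were not called or, for 2 genes, not tested, and the dashed line marks equal differences.

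Among the largest differences on the high side were genes read at low levels in all other strains, though Plac8 was not one of these. Thsd7b (chr1:129273302-130219278, GRCm38), a thrombospondin-repeat protein, was at 9.49, 9.62 and 7.71 in the PWK controls and at 0 to 0.460 (median 0.124) in the other 15. The groups were far apart, by 36.1 fold. In TM the PWK libraries gave 6.53, 7.35 and 11.1 and the others 0 to 0.863 (log2 difference 5.07 ± 0.59 SE, adjusted p = 1.86e-06). Plac8 (chr5:100553725-100572245), a small cysteine-rich protein, was at 276, 266 and 295 in PWK and at 0.294 to 100.4 in the others (median 22.5). Its level varied widely among the other strains, from a mean of 1.08 in WSB to 86.8 in NOD, and none reached PWK. The difference was 4.54 ± 0.21 under TM (adjusted p = 7.11e-12). F13a1, the A subunit of coagulation factor XIII, which crosslinks fibrin, was at 8.24 to 8.87 in PWK and 0.126 to 1.86 elsewhere. Fetub, a secreted cystatin-family protease inhibitor, was at 8.47 to 10.4 in PWK and 0.0824 to 1.18 elsewhere. Both were called higher under TM, with differences of 3.77 ± 0.41 and 4.54 ± 0.36. Further genes more than 8 fold higher in PWK were Frmpd1, Cdh23, Arhgap45, Angpt4 and Isoc2b, and every library of PWK under TM lay above all the others for each of them.

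**Figure D3:**
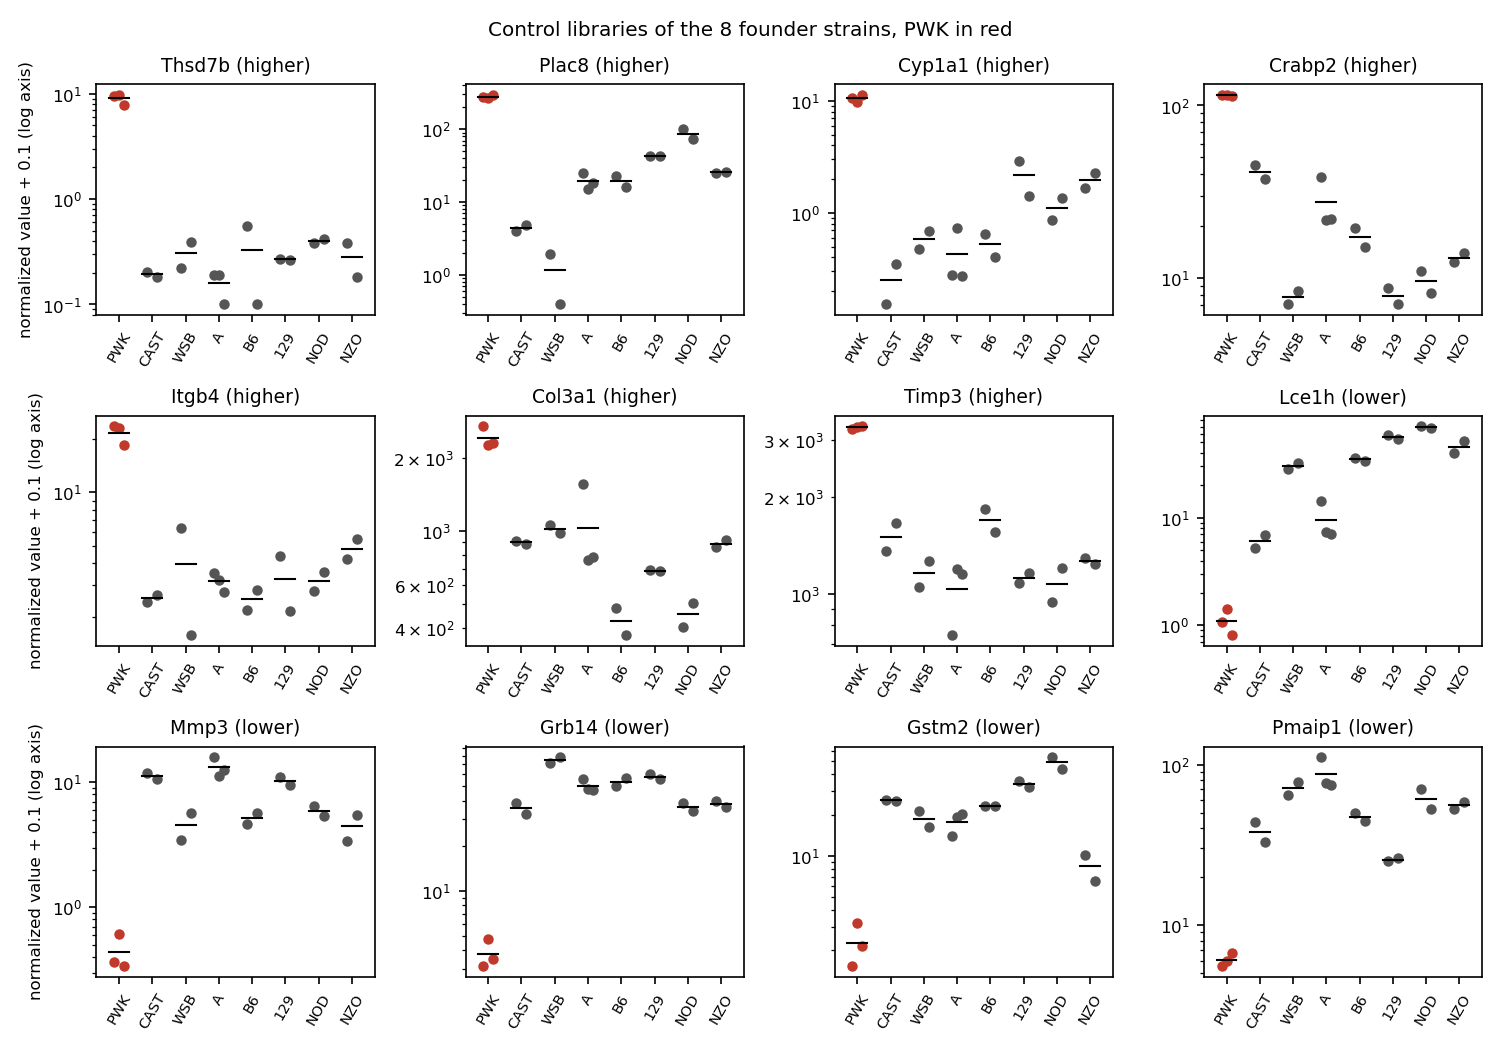
Normalized value plus 0.1 (vertical log axis) in every control library of the 8 founder strains (horizontal) for 12 of the named genes. Each point is a library, PWK in red, and each bar the arithmetic mean of a strain; the 3 PWK points lie above all others for 7 genes and below them for 5 (Lce1h, Mmp3, Grb14, Gstm2 and Pmaip1).

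Xenobiotic enzymes under the aryl hydrocarbon receptor were among the strongest of the high group. The receptor (Ahr) binds planar aromatic ligands, pairs with Arnt and switches on Cyp1a1 and Cyp1b1, monooxygenases that oxidise aromatic hydrocarbons, Aldh3a1, an aldehyde dehydrogenase, and its own brakes Ahrr and Tiparp. Cyp1a1 (chr9:57687928-57703824) was at 10.5, 9.73 and 11.2 in the PWK controls and at 0.0518 to 2.81 in the others (median 0.588). All PWK wells stood above all other wells, by 14.4 fold on average. Under TM it was at 14.8, 17.8 and 14.2 against 0.308 to 3.90 (3.68 ± 0.26, adjusted p = 2.48e-09). Aldh3a1 (chr11:61207537-61218421) was at 7.27, 8.34 and 6.65 in PWK. It averaged 1.28 in the 2 CAST controls and was at 0.552 or less in all others. Cyp1b1 (chr17:79701537-79715061) was at 376, 395 and 374 in PWK and at 41.4 to 311 elsewhere, CAST being nearest, and its difference under TM was 2.01 ± 0.16 (adjusted p = 1.06e-08).

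The receptor's own gene and its other partners were then looked up, a choice made after the values of these enzymes were seen. Ahr was at 21.1, 21.3 and 22.7 in PWK controls and at 1.98 to 14.4 in the others, 3.20 fold higher. Under TM its PWK values were 12.96, 26.1 and 26.8 against 1.05 to 17.7, so that the groups overlapped (1.64 ± 0.40, adjusted p = 0.00395), and without either PWK TM replicate 2 or replicate 3 the call was lost (adjusted p = 0.0385 and 0.0392). Ahrr was at 10.6, 11.5 and 12.3 in PWK and 0.956 to 6.11 elsewhere. Tiparp was at 52.6, 60.9 and 61.0 against 15.2 to 45.2. For both, the PWK libraries lay above the others under TM also, with differences of 2.15 ± 0.23 (adjusted p = 5.38e-07) and 1.35 ± 0.20 (adjusted p = 2.79e-05). Arnt met the rule by a narrow margin (52.8 to 53.4 against 23.4 to 51.1) and was not called in TM (adjusted p = 0.167). Nqo1, a quinone reductase that the receptor and NRF2 can both induce, was at 55.0 to 60.8 in PWK, inside the range of 26.6 to 91.6 of the other strains. Ugt1a7c, a glucuronosyltransferase, was inside the range as well (1.33 to 2.35 against 0.0819 to 4.65, highest in B6) and was called higher under TM (adjusted p = 0.000208), but 51.6% of its 100-base stretches (100 bases is the read length) are shared with other genes.

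The promoters of the receptor's targets are known for the core letters GCGTG, to which the Ahr and Arnt pair binds. The 250 bases before the start of 4 of these genes are shown because the genes were high together. The sequences are those of the reference strain B6 from RefSeq (GRCm38.p6), not of PWK, and capitals mark GCGTG or its reverse complement CACGC.
Cyp1a1: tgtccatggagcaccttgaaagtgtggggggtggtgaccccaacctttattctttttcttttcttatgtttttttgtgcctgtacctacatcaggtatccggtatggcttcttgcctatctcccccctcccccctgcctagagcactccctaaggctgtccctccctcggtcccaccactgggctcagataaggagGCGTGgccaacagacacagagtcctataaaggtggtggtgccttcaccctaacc
Cyp1b1: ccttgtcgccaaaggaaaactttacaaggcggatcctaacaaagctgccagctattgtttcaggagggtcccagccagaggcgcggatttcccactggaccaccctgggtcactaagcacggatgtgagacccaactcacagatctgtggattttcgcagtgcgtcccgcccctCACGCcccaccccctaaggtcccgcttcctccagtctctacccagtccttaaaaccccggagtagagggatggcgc
Ahrr: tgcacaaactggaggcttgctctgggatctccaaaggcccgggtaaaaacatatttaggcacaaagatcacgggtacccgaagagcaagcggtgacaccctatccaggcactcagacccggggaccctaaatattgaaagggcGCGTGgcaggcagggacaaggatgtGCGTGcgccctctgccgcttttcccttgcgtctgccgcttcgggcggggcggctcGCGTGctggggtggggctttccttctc
Tiparp: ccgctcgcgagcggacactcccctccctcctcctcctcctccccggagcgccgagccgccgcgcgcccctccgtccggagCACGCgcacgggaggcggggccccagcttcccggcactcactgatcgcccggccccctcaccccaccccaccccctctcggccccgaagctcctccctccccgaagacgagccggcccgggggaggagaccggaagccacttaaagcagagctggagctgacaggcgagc
They lie at chr9:57697363-57697612 (plus strand), chr17:79715062-79715311 (minus strand), chr13:74292332-74292581 (minus strand) and chr3:65528197-65528446 (plus strand), each printed 5′ to 3′ along its gene. A match begins 54 bases before the RefSeq start of Cyp1a1, 76 before that of Cyp1b1, 170 before that of Tiparp and 107, 82 and 27 before that of Ahrr. In the GENCODE coordinates used for genes here, Cyp1a1 begins at 57687928 and Tiparp at 65528410. The printed window of Cyp1a1 thus lies inside that gene span, and the window of Tiparp overlaps its span. Of all 32851 promoter windows of this length, 28.2% hold the letters on either strand, so a match by itself is common. The window of Aldh3a1 was not used here.

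The wider list of detoxification and retinoid oxidoreductases held 9 higher and 3 lower genes among 49 (24.5%, against 11.3% of all autosomal genes). Under TM 11 of the 49 were called higher and 5 lower, against 8.53% and 7.7% of all autosomal genes. Crabp2 (chr3:87948666-87953376), which carries retinoic acid to its nuclear receptors, was at 115, 114 and 113 in PWK and at 6.95 to 45.0 elsewhere. CAST stood next to PWK. The Crabp2 difference under TM was 3.01 ± 0.17 (adjusted p = 1.39e-10). On the low side were Aldh1b1, Aldh3b1 and Adh5, of which Aldh3b1 alone was called under TM (adjusted p = 0.00465). That call was lost without PWK TM replicate 2 (adjusted p = 0.0658) or replicate 3 (adjusted p = 0.0187).

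More matrix genes lay above the range than below it. Of 72 collagens and other matrix proteins, 13 lay above and 2 below the range of the other strains (20.8%), and under TM 28 were called higher and 4 lower. The median difference over the 72 was 0.45 in controls and 0.62 in TM, against medians of -0.01 over all autosomal genes in both. Col3a1 (chr1:45311538-45349706), a fibrillar collagen of soft tissue, was at 2714, 2268 and 2315 in PWK controls and at 372 to 1566 in the others. The highest of the others was a well of A, whose other wells were far lower. Under TM it was at 1935, 2146 and 2735 against 264 to 1203 (2.05 ± 0.17, adjusted p = 2.45e-08). Col18a1, the basement membrane collagen that is the source of endostatin, was at 350, 281 and 280 against 27.8 to 210.1 (2.27 ± 0.15 under TM, adjusted p = 9.73e-10). Lama5, a laminin chain of basement membranes, was at 568, 481 and 475 against 49.1 to 338 (2.20 ± 0.27 under TM, adjusted p = 3.44e-06). Fbn1, the main microfibril protein (2019 ± 48.4 SD, n = 3, against 475 to 1713), Postn, Sparc, Fbln5, Prelp and Emilin2 were above the range as well, and limma called each of them higher under TM. Lox, which crosslinks collagen, and Loxl2 met the rule in controls but were not called under TM (adjusted p = 0.0131 and 0.0234), and Loxl2 shares 42.8% of its 100-base stretches with other genes. The 2 matrix genes below the range were laminin chains too. Lama2 was at 29.1 to 33.9 against 35.7 to 177 and was called lower under TM (-1.07 ± 0.23, adjusted p = 0.00113), though not without PWK TM replicate 1 (adjusted p = 0.0229) or by edgeR (adjusted p = 0.0116). Lamb1 was at 504 to 547 against 631 to 847 and was not called (adjusted p = 0.0223).

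Receptors for the matrix and for growth factors were also found on the high side. Itgb4, the integrin subunit of hemidesmosomes, was at 23.5, 22.8 and 18.4 in PWK and at 1.47 to 6.20 elsewhere. Every other strain had a mean under 5, and the difference under TM was 3.00 ± 0.16 (adjusted p = 8.08e-11). Itga11, a collagen receptor subunit, was at 310 to 345 against 32.0 to 254, and Itgb3, of the vitronectin receptor, at 382 to 407 against 84.8 to 312, both called higher under TM (1.81 ± 0.20 and 1.84 ± 0.15). Cdh3, a cadherin of epithelia, was at 23.6 ± 3.0 (SD, n = 3) against 2.79 to 16.6. Itgb4, Lama5 and Cdh3 are genes that epithelial cells use as well, and the epithelial markers given above moved with them. Pdgfrb, the growth factor receptor of mesenchymal cells, was at 557, 498 and 500 against 123 to 400, and its ligand gene Pdgfb at 45.1, 37.5 and 35.5 against 3.24 to 23.4. Both were called higher under TM (1.10 ± 0.13 and 1.88 ± 0.11). Pdgfc, another ligand of this family that binds the alpha receptor, went the other way (64.02 to 70.2 against 78.6 to 148) and did not reach 1.5 fold under TM (-0.52 ± 0.10). In the list of cell adhesion molecules and integrins 5 of 55 were higher and 2 lower (12.7%), and in that of growth factors, receptors and IGF genes 4 and 2 of 55 (10.9%), which is near the 11.3% of all genes.

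Among the lists used here, matrix proteases and their inhibitors had the largest share: 14 of 44 lay above and 5 below the range (43.2%). Under TM 15 of the 44 were called higher and 6 lower. Timp3 (chr10:86300372-86349506), a metalloprotease inhibitor that binds to the matrix, was at 3232, 3290 and 3312 in PWK and at 745 to 1831 elsewhere. Under TM it was at 3184, 3691 and 3489 against 446 to 1324 (2.12 ± 0.16, adjusted p = 8.44e-09). The 2 plasminogen activators were both high. Plau was at 803, 810 and 792 against 222 to 760, a range whose top was set by CAST (1.29 ± 0.09 under TM, adjusted p = 2.30e-09), and Plat was at 75.0 ± 1.1 (SD, n = 3) against 18.2 to 41.4 (1.53 under TM, adjusted p = 5.1e-08). Membrane-bound proteases Mmp17, Mmp15, Adam8 and Adam12 and the secreted Adamts2, which trims fibrillar procollagens, were higher as well, and under TM each was called. Adamts2 was at 87.1 to 105 against 11.4 to 48.9, and Mmp17 at 44.4 to 54.6 against 6.06 to 23.01.

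Below the range in the same list were the secreted proteases Mmp3 and Mmp13, the inhibitor Serpinb2, the membrane-bound protease Mmp16 and the lysosomal protease Ctsb. Mmp3 (stromelysin; chr9:7445822-7455975) was at 0.266, 0.512 and 0.235 in the PWK controls and at 3.31 to 15.8 in the others (median 6.36), 16.7 fold lower. No PWK well came near any other well. Under TM it was at 0.757, 0.504 and 0.245 against 4.56 to 18.0 (-3.94 ± 0.24, adjusted p = 3.51e-10). Mmp13 (collagenase; chr9:7272514-7283331) was at 0.444, 0.768 and 1.65 against 2.84 to 18.4, and under TM the difference was -3.38 ± 0.14 (adjusted p = 3.04e-12). Both lie in the same cluster of metalloprotease genes. Mmp10, of the same cluster and looked up after these values were seen, was at 0.819 to 1.35. This overlapped the range of the others (0.869 to 17.8). Mmp10 was called lower under TM (-1.61 ± 0.18, adjusted p = 1.61e-06), but not in controls against CAST and WSB alone (limma, -0.29, adjusted p = 0.416). Serpinb2 (chr1:107511423-107535478), the inhibitor of the plasminogen activators, was at 2.66, 2.92 and 2.35 against 6.29 to 44.5. It was called lower under TM too (-2.04 ± 0.11, adjusted p = 9.42e-11), so that in PWK both activators were high and this inhibitor low.

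The promoters of Mmp3 and Mmp13 are known for an AP-1 element. They are shown because these 2 genes, next to each other among the listed genes, were low together. Capitals mark TGAGTCA or its reverse complement TGACTCA in the 250 bases before the start (RefSeq, GRCm38.p6, reference strain B6, both on the plus strand, chr9:7445572-7445821 and chr9:7272264-7272513).
Mmp3: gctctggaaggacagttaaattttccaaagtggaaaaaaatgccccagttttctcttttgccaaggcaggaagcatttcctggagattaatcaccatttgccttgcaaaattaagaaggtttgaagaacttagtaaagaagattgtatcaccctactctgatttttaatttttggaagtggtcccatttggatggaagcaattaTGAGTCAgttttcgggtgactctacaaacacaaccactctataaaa
Mmp13: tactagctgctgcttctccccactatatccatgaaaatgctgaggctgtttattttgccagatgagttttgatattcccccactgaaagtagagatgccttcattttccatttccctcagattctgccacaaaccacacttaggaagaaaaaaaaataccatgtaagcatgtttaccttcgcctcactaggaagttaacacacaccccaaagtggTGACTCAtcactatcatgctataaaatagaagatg
The letters begin 46 bases before the start of Mmp3 and 35 before that of Mmp13, and 4.46% of all 32851 windows of this length hold them on either strand.

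On the low side, the largest differences included a block of epidermal genes. Lce1f, Lce1g and Lce1h, which encode proteins of the cornified envelope of skin, lie next to each other on chr3:92718685-92765065. Lce1h was at 0.976, 1.33 and 0.706 in PWK controls and at 5.18 to 70.8 in the others (median 33.7). Lce1f was at 0.0588 to 0.410 against 3.21 to 48.0, and Lce1g at 0 to 1.02 against 5.08 to 97.7. CAST was the next lowest strain for all 3. Under TM the differences were -5.15 ± 0.26 for Lce1h, -5.23 ± 0.25 for Lce1f and -6.95 ± 0.36 for Lce1g (adjusted p = 2.87e-11, 9.74e-12 and 4.19e-11). These copies share between 0.795% and 1.70% of their 100-base stretches with other genes. Klk8 and Klk10, kallikrein proteases of the epidermis, were low too, at 1.24 to 1.74 against 3.13 to 24.1 and at 0.154 to 0.266 against 0.363 to 3.40. The Lce cluster was low for most but not all genes. Of its 6 listed genes 3 were below and 1 above the range, and under TM 4 were called lower and 1 higher. Lce1l overlapped the range in controls (0 to 0.177 against 0.113 to 8.02) and was called lower under TM (-3.59 ± 0.27, adjusted p = 7.00e-09). Lce3c was at 0.768 to 1.69 against 0 to 0.168 and was called higher under TM (2.57 ± 0.33, adjusted p = 6.16e-06), though 24.1% of its stretches are shared with other genes. Lce1j was not called (adjusted p = 0.178). The epithelial keratins Krt8 (20.4 to 24.04 against 0.294 to 23.9) and Krt18 (46.9 to 53.8 against 4.18 to 61.6) lay near or at the top of the range. Grb14, an adaptor that restrains the insulin receptor, was at 3.02, 4.66 and 3.41 against 32.5 to 78.4, which makes 12.8 fold. Its TM libraries gave 4.07, 3.53 and 3.85 against 31.4 to 95.2 (-3.62 ± 0.10, adjusted p = 3.59e-15). Further genes over 8 fold lower were Gpr149, Lrrc4c, Clca3a1, Kcnab1, Ecscr and Lrrc17, and for each of them all PWK TM libraries lay below the others. Rpl21-ps6, a processed copy of a ribosomal protein gene, was low by the rule as well, but shares 23.3% of its 100-base stretches with other genes, so its reads are uncertain.

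Among regional identity genes more lay below the range than above it. The list of Hox and limb or regional identity genes held 11 lower and 4 higher genes of 73 (20.5%), and under TM 27 were called lower and 4 higher. Hoxb6 was at 5.94, 4.71 and 4.59 in PWK and at 8.38 to 19.2 in the others. Under TM it was at 4.26, 4.23 and 3.30 against 6.84 to 17.9 (-1.39 ± 0.16, adjusted p = 1.23e-06). Hoxb9 (16.5 to 19.9 against 20.1 to 71.7) and Hoxb8 (0.294 to 1.24 against 1.29 to 3.87) lay just below the range. Both were called lower under TM although their TM groups overlapped (adjusted p = 8.12e-06 and 8.66e-05). Hoxc13, at 0.307 to 0.621 against 0.628 to 4.04, and Hoxc9 (2.18 to 3.07 against 3.24 to 13.9) were called too, the latter not by edgeR (adjusted p = 0.0125), while Hoxc12 was not (adjusted p = 0.0182). The remaining low genes were Hoxc5, Hoxd8, Eya1, Tbx2 and Hand2. Split by cluster, a grouping made after these values were seen, 3 of 8 listed Hoxb genes, 4 of 9 Hoxc genes, 1 of 6 Hoxd genes and 0 of 12 Hoxa genes lay below the range, and none lay above it. limma called 7, 6, 5 and 4 of them lower under TM, where 7.7% of all autosomal genes were called lower, and the median TM differences were -1.02, -0.75, -1.27 and -0.38. Among these calls Hoxb4 was lost without any 1 of the PWK TM replicates, Hoxb5 and Hoxc6 without replicate 2 or 3, and all 3 with edgeR (adjusted p = 0.0433, 0.0247 and 0.0196). The 4 regional genes above the range were Dlx1, Tbx18, Twist1 and Prrx2, transcription factors of the embryo. Of these Dlx1 was called under TM (1.06, adjusted p = 0.00436), a call lost without PWK TM replicate 2 or replicate 3 (adjusted p = 0.0211 and 0.0671).

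Glutathione enzymes were mixed. In the list of glutathione and NRF2 genes 5 of 50 were higher and 4 lower (18.0%). Gstm2 (chr3:107981702-107986453), a glutathione transferase of the mu class, was at 1.42, 3.07 and 2.06 in PWK controls and at 6.46 to 53.7 elsewhere, with NZO next lowest. Under TM it stayed below the others, at 1.35 to 2.82 against 6.30 to 45.5 (-3.28 ± 0.20, adjusted p = 2.71e-10). Its neighbours in the mu cluster did not share this. Gstm5 was above the range (40.7 to 41.2 against 14.3 to 34.8), and so was Gstm6 (1.47 to 1.86 against 0 to 1.02), both called higher under TM (adjusted p = 0.00268 and 0.00461), although neither call survived leaving out PWK TM replicate 1 (adjusted p = 0.0373 and 0.0342) or replicate 2 (adjusted p = 0.0102 and 0.0633). The copies of the cluster share at most 5.86% of their 100-base stretches with other genes. Sod3, the superoxide dismutase of the matrix, was at 307, 243 and 264 against 14.4 to 115 (2.51 ± 0.12 under TM, adjusted p = 2.08e-11). Txnrd1, the cytosolic thioredoxin reductase and a gene that NRF2 drives, was lower at 408, 423 and 402 against 598 to 802 (-0.73 ± 0.08, adjusted p = 1.22e-06). Gstp1 (155 to 171 against 42.2 to 80.7) was higher, but 25.1% of its stretches occur in other genes.

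Signals to immune cells went both ways, with more of them upward under TM. Of 38 listed chemokines and cytokines 4 were higher and 2 lower (15.8%). Under TM 14 of the 38 were called higher and 4 lower, against 8.53% and 7.7% of all autosomal genes. The median difference over this list was 0.22 in controls and 0.53 in TM. Cxcl3 and Cxcl5, neutrophil attractants of the chr5 cluster, were at 10.9, 9.93 and 8.59 against 0.504 to 1.88 and at 35.8, 35.6 and 36.4 against 3.28 to 27.2. Under TM Cxcl3 reached 69.4, 56.7 and 59.1 in PWK against 2.05 to 8.09 (3.83 ± 0.18, adjusted p = 1.42e-11), and Cxcl5 417, 378 and 320 against 18.8 to 121 (2.93 ± 0.17, adjusted p = 1.54e-10). Ccl9 (14.0 to 14.9 against 1.45 to 5.96) and Il1rn, the antagonist of the interleukin 1 receptor (19.5 to 23.4 against 0.912 to 8.90), were the other higher genes. Il11, a cytokine of the interleukin 6 family, was lower at 41.6, 36.3 and 38.4 against 68.5 to 245 (-1.54 ± 0.10 under TM, adjusted p = 7.87e-10). Csf1, the macrophage growth factor, lay below the range (1747 to 1876 against 1998 to 3372) and was not called under TM (adjusted p = 0.0818). Complement and serpin genes had 6 higher and 1 lower of 31 (22.6%). Serpinb1a, an inhibitor of neutrophil proteases, was at 14.8, 15.2 and 14.5 against 0.246 to 2.69 (4.14 ± 0.26 under TM, adjusted p = 3.62e-10), and its neighbour Serpinb1c, looked up later, was also above the range (1.24 to 1.64 against 0 to 0.628). Interferon-stimulated genes had 5 higher and 4 lower of 59 (15.3%) with no common direction: Ddx58, an RNA sensor, was at 23.8 to 26.7 against 4.76 to 17.2, and Ifi27 at 6.12 to 7.45 against 26.5 to 86.1. MHC class I and antigen processing genes had 3 of 28 (10.7%), all higher, and under TM 5 were called higher and 2 lower. H2-Q7 was at 3.06 to 4.79 against 0 to 1.24, with 11.98% of its stretches shared. Erap1, which trims peptides for class I molecules, was at 14.5 to 17.6 against 6.55 to 13.6. H2-D1 was at 151 to 171 against 6.76 to 111. In controls limma called H2-D1 only when a WSB control was left out or in the fit over all 40 founder libraries. Its difference was 1.67 without WSB control replicate 2 and 1.17 without replicate 3.

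Lists of growth and metabolism genes differed in share and direction. TGF-beta, BMP and Wnt genes had 9 higher and 4 lower of 76 (17.1%). The ligands Bmp5 (10.2 to 12.3 against 1.17 to 7.66) and Bmp6 (5.65 to 7.18 against 0.964 to 3.71) were higher, and Fst, the secreted follistatin that binds activins and BMPs, was lower at 24.75 to 24.98 against 36.3 to 253. All 3 were called under TM (1.90, 1.77 and -1.97). Cholesterol synthesis genes had 4 higher and 0 lower of 25, with Dhcr7, the last enzyme of the pathway, at 65.0 to 75.2 against 13.2 to 49.8 (1.58 ± 0.10 under TM, adjusted p = 3.01e-10). Glycolysis genes had 1 higher and 4 lower of 27 (18.5%). Eno2, an enolase, was at 2.59 to 3.43 against 6.66 to 13.02 and was called lower under TM (-1.86 ± 0.12, adjusted p = 8.79e-10), and Gapdh, at 1292 to 1472 against 1837 to 3074, shares 20.9% of its stretches with other genes. Of the p53 list Pmaip1, the cell death gene Noxa, was at 5.41, 5.89 and 6.59 against 24.9 to 111 (8.51 fold lower). Under TM it was at 11.4 to 14.0 against 28.9 to 152 (-2.56 ± 0.09, adjusted p = 2.23e-13), and the death receptor gene Fas was higher in controls (9.80 ± 0.35 SD, n = 3, against 3.04 to 8.70).

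Several further lists had a smaller share of such genes than the 11.3% of all autosomal genes. Of 43 genes of the unfolded protein response, which TM switches on, 2 lay above the range and 0 below (4.65%). They were Eif2ak3, the stress sensor PERK (43.5 to 47.9 against 21.4 to 34.4), and Pdia4, an ER disulfide isomerase (316 to 324 against 179 to 297). Under TM neither passed 1.5 fold (0.39 ± 0.11 and 0.18 ± 0.07). DNA replication and mitosis had 3 higher and 0 lower of 57 (5.26%), all G1 regulators. Cdk6 was at 21.02, 26.98 and 27.8 against 6.82 to 17.4 and was called under TM (adjusted p = 0.000118), and its partners Ccnd1 and Ccnd2 were at 690 to 735 against 421 to 576 and at 815 to 866 against 426 to 813. Respiratory chain subunits had 2 of 69 (2.9%), cytosolic ribosomal proteins 2 of 72 (2.78%), imprinted genes 1 of 34 (2.94%) and innate sensors 1 of 31 (3.23%). Amino acid supply genes had 3 lower of 32 (9.38%) and Zfp-named zinc finger genes 7 higher and 16 lower of 316 (7.28%). Under TM limma called 6 of the innate sensors higher and 0 lower, and 4 imprinted genes higher and 4 lower. Over all autosomal genes 8.53% were called higher and 7.7% lower. In the respiratory chain and ribosomal lists 0 genes were called under TM.

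**Figure D4:**
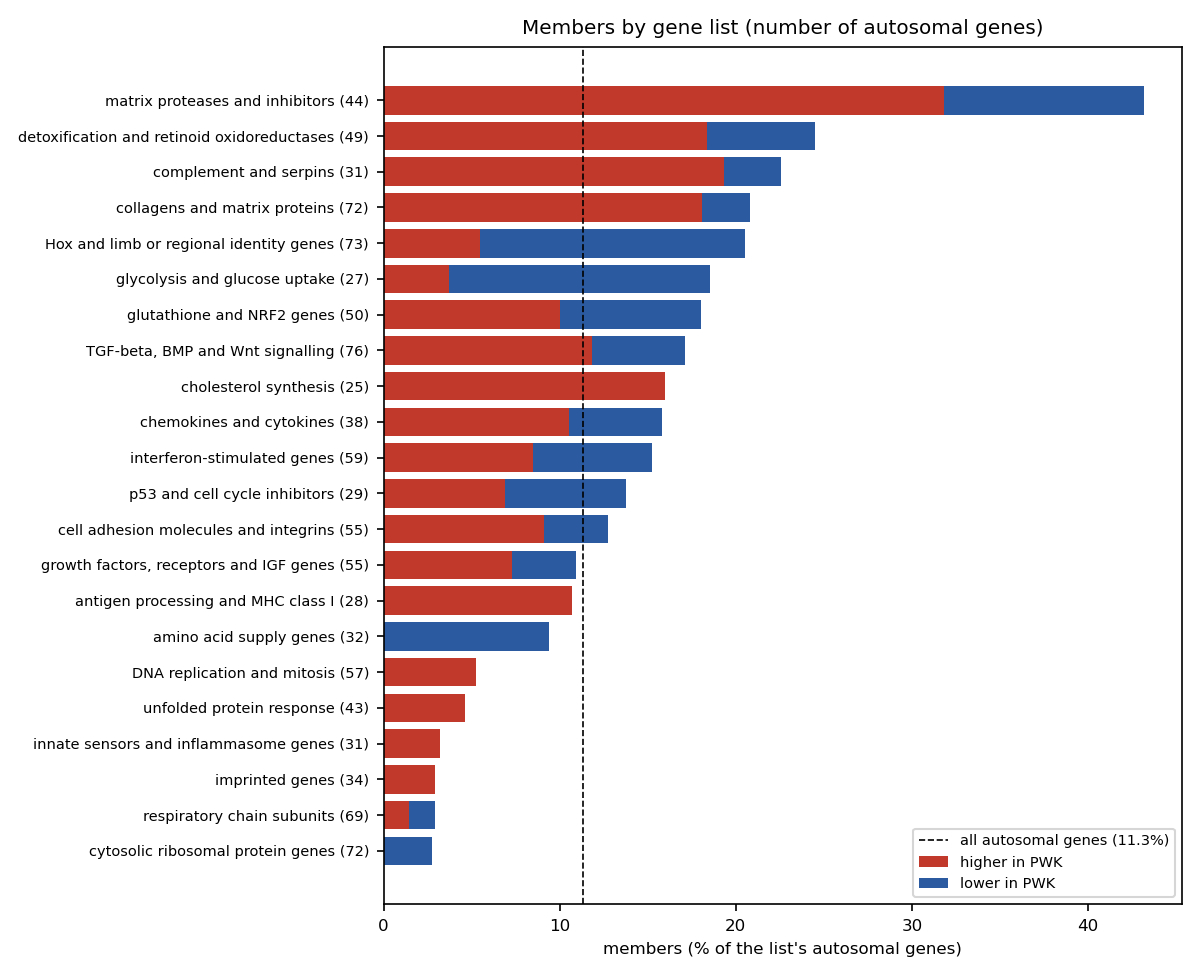
Share of each list's autosomal genes (horizontal, in percent; list sizes in brackets) that lay above (red) or below (blue) all other controls in PWK, against 11.3% of all autosomal genes (dashed line). Matrix proteases and inhibitors stand highest at 43.2% and cytosolic ribosomal protein genes lowest at 2.78%.

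Along the genome the genes were spread over all autosomes, from 8.9% of the listed genes of chromosome 4 to 14.0% of those of chromosomes 5 and 12. A next listed gene that also met the rule was found for 329 of the 1424 (23.1%). Of all autosomal genes 11.3% met the rule, and a gene has a neighbour on each side, so a share above 11.3% needs no grouping. Whether these genes group along the genome was not tested. The count was 600 without PWK control replicate 1 and 191 with a minimum of 1.5 fold. Of the 177 such pairs of neighbours 113 (63.8%) had the same direction. Runs of 3 or more neighbours numbered 18 and the longest had 5 genes, Lgals3bp, Cant1 and C1qtnf1 above and Engase and Cbx2 below (chr11:118392751-119031270). In the run Fgl2, Fam185a, Fbxl13 and Lrrc17 (chr5:21372642-21645634) all 4 were lower, with Lrrc17 at 0.941 ± 0.10 (SD, n = 3) against 4.91 to 22.2. Gpatch2l, Esrrb, Vash1 and Angel1 (chr12:86241858-86726460) were all higher in controls. Under TM Gpatch2l and Vash1 were called higher, and Esrrb and Angel1 were not called. The Vash1 call was lost without any 1 of the PWK TM replicates and the Gpatch2l call without replicate 2 or 3. Both were lost with edgeR (adjusted p = 0.0170 for Vash1 and 0.0234 for Gpatch2l). Genes on the other strand overlap 43.5% of the higher and 43.5% of the lower genes, against 45.1% of all autosomal genes, and the library kit kept no strand, so reads of such pairs cannot be told apart. At least 10% of the 100-base stretches were shared with other genes for 35 higher (4.66%) and 32 lower genes (4.75%), against 5.25% of all.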

How the data were processed

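RNA from MEFs of the 8 founder strains was sequenced as single-end reads of 100 bases from a library kit that does not mark strand. Per the submitters' processing notes and the study's methods, reads were trimmed with Trimmomatic and aligned with TopHat 1.4.1 to strain-specific versions of GRCm38/mm10. Outlier libraries were removed by the authors before deposit, and the counting tool is not given in the sources used here. The deposited values are described as FPKM, but in all 40 founder libraries the values are whole multiples of what 1 read is worth (all values within 0.02 of a whole read), with no division by gene length. They were therefore treated as a normalized signal, that is, reads per gene relative to the library size scaled by the authors with TMM in edgeR. Tables of F1 crosses, which were normalized separately and do not include PWK, were not used.

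Of 13197 genes, 13023 matched GENCODE M21 (GRCm38) and 174 did not. Genes at 0.5 or more in at least 2 libraries were tested with limma 3.58.1 (R 4.3.3) on log2(value + 0.1), as PWK minus the mean of the 7 other strain means, separately in controls and TM. Benjamini-Hochberg adjusted p under 0.01 and 1.5 fold made a call. edgeR 4.0.16 on the recovered reads was an alternative, without PWK TM replicate 2 and WSB TM replicate 1, in which 1 read is worth so near to 0.1 that whole reads could be mistaken for rounding, and the fit was tested on simulated data. Intervals are SE or SD as stated. Genes were named by the largest differences, the highest levels, up to 4 per list and direction, neighbours and the edge of the rule; others were added after their values were seen. The genes and lists were chosen with earlier results of these data known.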

Additional observations from a re-analysis of the deposited data

Results flagged for a closer look

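For 2 of the 1424 genes the difference between PWK and the other strains was not the same in TM as in controls. The test was of the difference itself (limma, interaction term, adjusted p under 0.01). Outside the rule, Plk2, Tlr2, Cxcl1, Lif and Ppp1r15a passed the same test. Few genes passed it in all, and a gene that did not pass is not thereby shown to be unchanged by TM. Bean1 had a TM difference larger by 1.10 on the log2 scale (adjusted p = 0.00198). It was at 17.1 ± 1.09 (SD, n = 3) in PWK controls against 6.80 to 14.1 in the others, and at 31.7 ± 2.08 in PWK under TM against 5.50 to 15.7. Serpinb2, the inhibitor of the plasminogen activators, had a difference that was 0.82 closer to 0 under TM. It was below the other strains in both.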

How the results depend on the processing

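No call turned direction under any alternative run. Over all chromosomes limma called 1047 genes higher and 984 lower in PWK controls, and 372 and 377 when the libraries of the other strains were weighted equally, which puts the spread among those strains into the error. Under TM 1031 genes were called lower, and 686 with edgeR on recovered reads, a fit without PWK TM replicate 2 and WSB TM replicate 1. Leaving out each library in turn gave 779 to 1136 higher and 776 to 1068 lower genes in controls, and 815 to 1182 and 797 to 1084 in TM. Of the genes outside the range, 410 to 510 were then called higher and 342 to 402 lower in TM, and the rule itself found 756 to 1028 and 681 to 960. A minimum of 1.5 fold left 573 and 456 genes. The number of genes with a neighbour of the same kind, 329, was 600 without PWK control replicate 1 and 191 with a minimum of 1.5 fold. Samples were not taken as paired by number: deviations of PWK and other libraries of the same number correlated at -0.06 to 0.19, and over all strains at -0.14 to 0.48, with 17 of 49 same-number pairs over 0.1 against 12 of 92 pairs of different number. With the replicate number as a block, 1143 and 1040 genes were called in controls, 1125 and 1045 in TM, and 492 and 393 of the genes outside the range. With wells of 1 preparation per strain, the precision is that among wells, and low genes carry few reads.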
